A study of Mus musculus with 6 samples.

Results

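The messenger RNAs of 9 receptors for Wnt and R-spondin proteins were followed in organoids grown from mouse jejunum, that is, cultured epithelium of the upper small intestine. The genes were 6 Frizzled genes (Fzd1, Fzd4, Fzd5, Fzd6, Fzd7 and Fzd8), the co-receptor genes Lrp5 and Lrp6, and Lgr4. They were picked by gene symbol from a table of 18448 genes, and all 9 were among the 14544 genes with enough counts to be tested. The 3 further Frizzled genes of the table (Fzd2, Fzd3 and Fzd9) were used for comparison. The study compared 3 libraries from organoids given 0.5 µM 4-hydroxytamoxifen (4OHT) for 24 hours with 3 libraries from organoids given the vehicle DMSO. All organoids were of the strain C57BL/6 and had the genotype Villin-CreERT2; Hnf4aflox/flox, in which 4OHT switches on a Cre recombinase made in villin-expressing epithelial cells. All 6 cultures also received 200 ng/mL recombinant Wnt3A and were harvested at day 2. The DMSO organoids carried the same transgene and floxed alleles but had not been given 4OHT, so 4OHT and active Cre cannot be told apart from loss of Hnf4a. The labels do not say whether the replicates came from separate animals or organoid lines. Each p-value therefore reflects only how far these 3 libraries per group scatter. Where equal replicate numbers were treated as pairs, it reflects how far the differences within these pairs scatter. Part of either scatter may be technical.

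Wnt proteins bind the cysteine-rich domain of a Frizzled, a multipass membrane receptor, and a co-receptor, LRP5 or LRP6. The complex recruits Dishevelled and Axin, and beta-catenin is then spared from destruction. R-spondins bind LGR receptors together with the ubiquitin ligases ZNRF3 and RNF43, which otherwise remove Frizzled from the cell surface. In the intestinal crypt this pathway maintains stem cells and is needed for Paneth cells. In the mouse, Fzd7 has been tied to the Wnt response of Lgr5+ stem cells and Fzd5 to Paneth cell maturation.

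Frizzled genes resemble one another, which bears on how reads are assigned to the rarest of them. The longest stretch that Fzd1 shares base for base with Fzd7 within the coding sequence was 47 bases, in the part that encodes the cysteine-rich domain. It is given with its flanking bases on each side, next to the matching stretches of Fzd2, the other close relative, and of Fzd5. Sequences are from GENCODE release M21 (GRCm38) and read 5′ to 3′ on the coding strand, and capitals mark bases that differ from Fzd7.
Fzd7: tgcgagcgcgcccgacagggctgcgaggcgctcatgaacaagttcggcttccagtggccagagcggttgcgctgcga
Fzd1: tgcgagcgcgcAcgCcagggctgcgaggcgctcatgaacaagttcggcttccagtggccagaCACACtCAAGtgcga
Fzd2: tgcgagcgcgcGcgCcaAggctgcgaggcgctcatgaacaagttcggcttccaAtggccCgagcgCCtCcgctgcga
Fzd5: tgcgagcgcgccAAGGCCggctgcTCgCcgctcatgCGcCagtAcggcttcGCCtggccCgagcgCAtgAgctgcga
The stretches lie at chr1:59483329-59483405 (plus strand, Fzd7), chr5:4756949-4757025 (minus, Fzd1), chr11:102605086-102605162 (plus, Fzd2) and chr1:64736200-64736276 (minus, Fzd5). Over these 77 bases Fzd1 differed from Fzd7 at 11, Fzd2 at 8 and Fzd5 at 20. Across the 36 pairs of the 9 Frizzled genes in the table, 0 pairs shared a run of 50 identical coding bases. The read length and the rule for reads with several matches were not given in the sources used here.

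The libraries held 31537100 to 40276242 counts. Hnf4a, the gene with the floxed alleles, had 435.9, 423.7 and 481.7 CPM in the 4OHT libraries and 839.8, 846.2 and 1021 CPM in the DMSO libraries (reads scaled to a common library size, CPM). Every 4OHT library was thus below every DMSO library, and the fall was called (log2 fold change -1.01, SE 0.10, edgeR adjusted p = 0.0124). That call was lost in each fit that left out a single library other than DMSO replicate 3 (adjusted p 0.0572 to 0.0951). The Hnf4a counts are of the whole gene, so they do not give the share of cells with the deletion. All 8 epithelial markers examined were tested, and together they held 16224 to 19739 CPM in the 4OHT libraries and 13580 to 18119 CPM in the DMSO libraries. Of 9 mesenchymal markers, 3 had a row, and none of those 3 exceeded 1.82 CPM in any library. DMSO replicate 3 and, less so, 4OHT replicate 3 stood apart from the other libraries, as detailed for Fzd5.

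Lgr4 and Lrp5 had the highest levels per length among the receptors, Fzd5 and Fzd7 came next, and Fzd1 and Fzd8 were barely detected. Levels are compared between genes as CPM divided by the length of all merged exons of the gene in kilobases (CPM per kb). Lgr4, which encodes the R-spondin receptor found throughout the crypt, averaged 42.1 ± 2.09 CPM per kb in 4OHT libraries and 39.1 ± 0.646 in DMSO libraries (SD, n = 3 each). Lrp5 averaged 34.8 ± 2.01 CPM per kb with 4OHT and 31.7 ± 1.20 with DMSO. Lgr4 was above Lrp5 in 6 of 6 libraries. Fzd5 averaged 22.9 ± 4.22 CPM per kb with 4OHT and 26.9 ± 8.80 with DMSO, and Fzd7 averaged 18.9 ± 0.573 and 17.5 ± 0.991. Fzd5 overlapped Lrp5 among the DMSO libraries, and it overlapped Fzd7 among the 4OHT libraries, so these neighbours are not separated beyond their spread in both groups. Lrp6 (7.19 ± 0.256 with 4OHT, 7.50 ± 0.743 with DMSO) and Fzd6 (4.79 ± 0.747 and 3.80 ± 0.691) followed, each below its upper neighbour in 6 of 6 libraries.

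Among the chosen receptors a steep step separated Fzd6 from the rarest, but 2 of the comparison genes lay within it. Averaged over all libraries, Fzd2 had 3.03 and Fzd9 1.10 CPM per kb, between Fzd6 (4.29) and Fzd4 (0.418). Fzd4, which encodes the receptor for the non-Wnt ligand Norrin, averaged 0.404 ± 0.0678 CPM per kb with 4OHT and 0.431 ± 0.0692 with DMSO, and Fzd6 exceeded it 6.26-fold to 12.7-fold within a library. Fzd1 was represented by 5 to 14 raw counts per library and Fzd8, the closest relative of Fzd5, by 8 to 17. The order of these last genes differed between libraries, with Fzd1 above Fzd8 in 3 of 6. Of all tested genes, 90.5% had a lower mean level per length than Lgr4, 83.7% than Fzd5, 77.7% than Fzd7, 43.9% than Fzd6 and 0.683% than Fzd8.

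**Figure D1:**
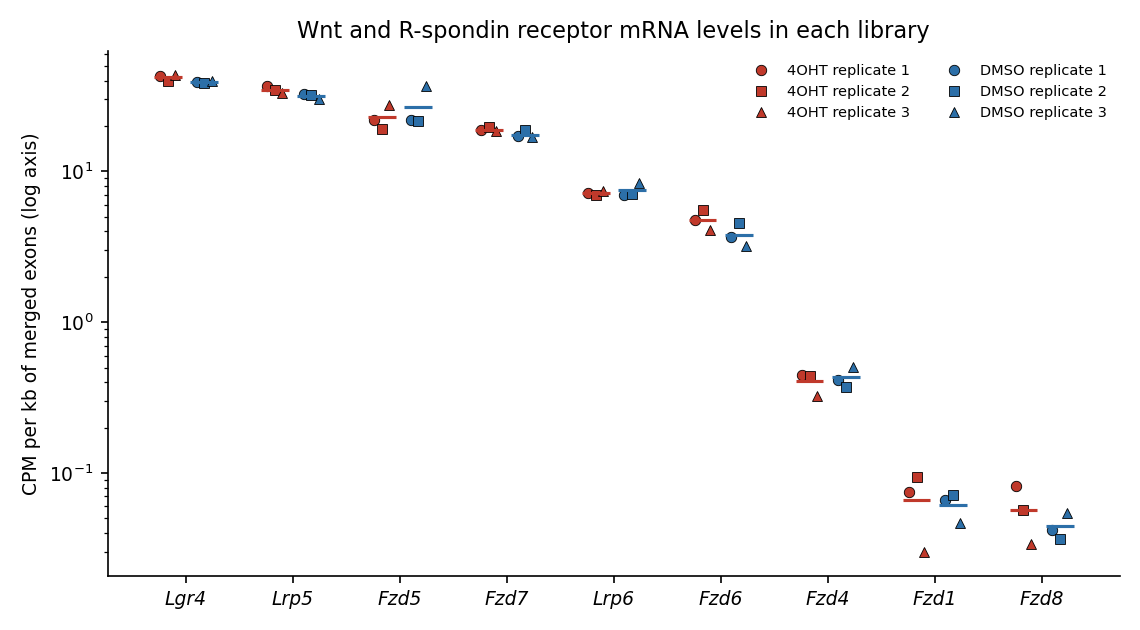
Level of each receptor gene in each library, as CPM per kb of merged exons on a log axis; each point is a library, its shape the replicate number, and each bar the mean of 3 libraries. Lgr4, Lrp5, Fzd5 and Fzd7 lie near the top, Fzd1 and Fzd8 at the bottom, and replicate 3 is the highest point of Fzd5 in both groups.

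Fzd5 and Fzd7 together made up most of the Frizzled mRNA. As shares of the summed CPM per kb of the 9 Frizzled genes in the table, Fzd5 held 43.2%, 39.0% and 51.7% in 4OHT replicates 1 to 3 and 45.8%, 43.2% and 60.4% in DMSO replicates 1 to 3. Fzd7 held 36.7%, 39.8% and 34.7% with 4OHT, against 35.7%, 37.3% and 27.4% with DMSO. The ranges of the groups overlapped for both genes, and DMSO replicate 3 had the highest Fzd5 share and the lowest Fzd7 share of all libraries. Fzd6 held 9.41 ± 1.83% with 4OHT and 7.31 ± 1.98% with DMSO, and the 3 receptors Fzd1, Fzd4 and Fzd8 each averaged under 1% in both groups. Fzd2, the relative of Fzd7 shown above, held 5.66 ± 1.70% with 4OHT and 6.13 ± 1.39% with DMSO. The summed Frizzled level was 51.2 ± 2.00 CPM per kb with 4OHT and 53.1 ± 7.19 with DMSO.

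**Figure D2:**
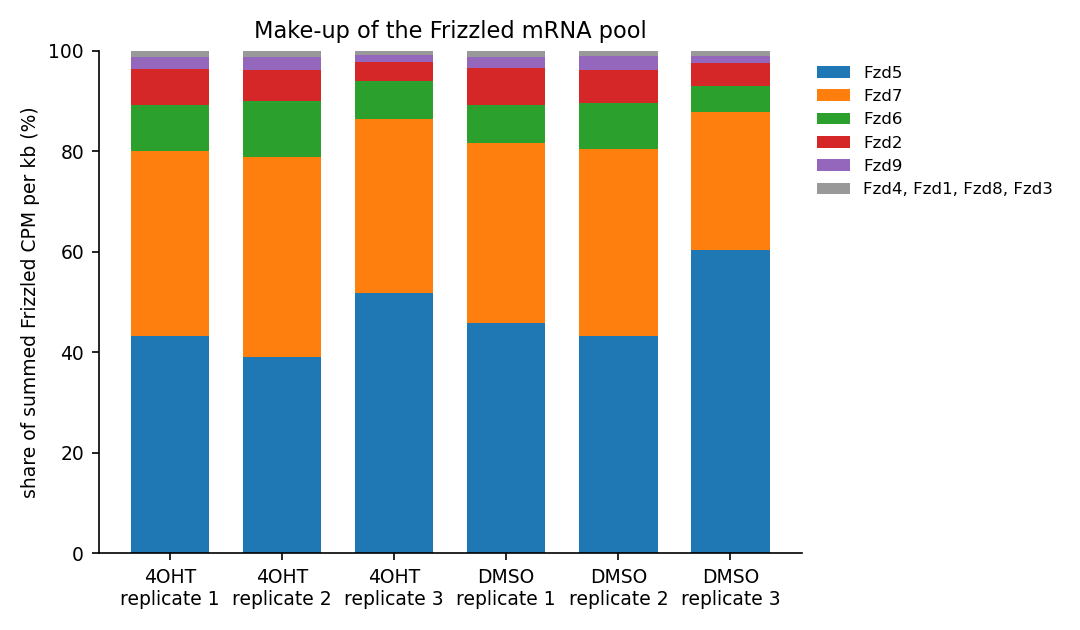
Share of each Frizzled gene in the summed Frizzled level (CPM per kb, percent), with a bar per library and the 4 rarest genes drawn as one segment. Fzd5 and Fzd7 fill most of every bar, and the Fzd5 segment reaches 60.4% in DMSO replicate 3.

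None of the 9 receptor genes passed the test of 4OHT against DMSO. By edgeR's quasi-likelihood test with Benjamini-Hochberg adjustment over all tested genes, 0 of 9 were called, with adjusted p from 0.390 to 0.955, where 0.908% of all tested genes were called. DESeq2, which gave no adjusted p for Fzd1 and Fzd8, called 0 of the others (5.24% of all tested genes), and limma-voom called 0 of the 9 (0.846% of all). At an unadjusted p under 0.05 edgeR, DESeq2 and limma-voom each had 0 of the 9, where edgeR had 15% of all tested genes, DESeq2 14.2% and limma-voom 15%. With the replicate number as a block in the edgeR model, 1 of 9 was called, a rise, beside 6.99% of all tested genes (3.99% higher, 3% lower). At an unadjusted p under 0.05 the block gave 3 of 9, where 25.3% of all tested genes passed in either direction. All 3 were higher, and 13.3% of all tested genes passed and were higher. The log2 fold changes of the 9 had a median of 0.11, beside -0.004 over all tested genes, and their median size of 0.11 was close to the 0.12 of all tested genes. Fold changes were positive for 6 of the 9 and negative for 3. In the authors' deposited table the smallest edgeR adjusted p among the 9 genes was 0.51, for Fzd6.

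Fzd6, which encodes a Frizzled best known for planar cell polarity and hair patterning in the mouse, was the receptor called under the block. Its level was 22.9, 26.8 and 19.6 CPM in 4OHT replicates 1 to 3 and 17.7, 21.9 and 15.3 CPM in DMSO replicates 1 to 3. The groups overlapped, since 4OHT replicate 3 lay below DMSO replicate 2, but the 4OHT library was the higher in all 3 pairs of the same number (25.3% of all tested genes did this). The log2 fold change was 0.33 (95% interval -0.05 to 0.72, edgeR adjusted p = 0.398). With the replicate block Fzd6 rose by 0.34 (0.19 to 0.49, edgeR adjusted p = 0.0365), a 1.26-fold higher level. The blocked call was lost without replicate 1 of both groups (0.32, edgeR adjusted p = 0.129) or without replicate 2 of both groups (0.36, edgeR adjusted p = 0.196), and it held without replicate 3 of both groups (0.32, edgeR adjusted p = 0.00325). In these fits 4.35%, 0.301% and 18.3% of all tested genes were called. Marker lists of goblet cells, enterocytes, stem cells and tuft cells had fold changes mostly of one sign. The 7 goblet cell markers summed to 3619 to 6131 CPM in the 4OHT libraries and 2229 to 4201 CPM in the DMSO libraries, and all 7 had positive fold changes. By edgeR 0 of the 7 were called without the block, where 0.701% of all tested genes were called higher, and 6 rose with it, where 3.99% did. All 10 enterocyte markers had negative fold changes (median -0.61, 0 called without the block and 3 lower with it, where 3% of all tested genes were called lower). Of 8 stem cell markers 7 had negative fold changes (median -0.32, 0 called without the block, 1 higher and 1 lower with it). Of 5 tested tuft cell markers 4 had positive fold changes (0 called without the block, 1 higher with it). The 8 Paneth cell markers were split, with 4 positive and 4 negative. Of these, Lyz1 was called lower without the block (-0.78, edgeR adjusted p = 0.0318), where 0.206% of all tested genes were, and with it (0.00581). DESeq2, without a block, called 3 enterocyte markers and 1 Paneth cell marker lower (1.83% of all tested genes). It called 2 goblet, 1 stem and 1 tuft cell marker higher (3.41% of all). The part of these cell types in the Fzd6 result was not tested. In such bulk RNA, more cells of a type and more RNA per cell cannot be told apart.

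Fzd7, the relative of Fzd1 and Fzd2, measured 85.0, 88.6 and 83.6 CPM with 4OHT and 77.7, 84.6 and 76.2 CPM with DMSO. The groups overlapped at DMSO replicate 2, and each 4OHT library exceeded the DMSO library of its number. The log2 fold change was 0.11 (95% interval -0.03 to 0.25, edgeR adjusted p = 0.453), and with the block 0.11 (0.01 to 0.21, adjusted p = 0.173). The upper bound without the block corresponds to a 1.19-fold higher level.

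Fzd5 showed the widest spread among the abundant receptors, and replicate 3 set that spread. It measured 152.7, 132.8 and 190.2 CPM in 4OHT replicates 1 to 3 and 151.9, 149.3 and 256.0 CPM in DMSO replicates 1 to 3. Replicate 3 was the highest library of each group, and the groups overlapped. The log2 fold change was -0.23 (95% interval -0.78 to 0.32, edgeR adjusted p = 0.703), and it turned to 0.07 without DMSO replicate 3 (adjusted p = 0.858). With the block it was -0.20 (-0.41 to 0.01, adjusted p = 0.218). Enterocyte markers moved with the same libraries: the 10 markers summed to 2693, 2083 and 3505 CPM in 4OHT replicates 1 to 3 and to 3241, 2985 and 6466 CPM in DMSO replicates 1 to 3. These sums overlapped between the groups although all 10 fold changes were negative. The enterocyte markers were higher in replicate 3 than in the mean of replicates 1 and 2 for 9 of 10 with 4OHT and 10 of 10 with DMSO. This was not particular to them: it held for 7 and 7 of 7 goblet, 6 and 7 of 7 enteroendocrine, and 5 and 6 of 8 Paneth cell markers. Among stem cell markers it held for 0 and 3 of 8, and among tuft cell markers for 1 and 4 of 5. The part of these cell types in the Fzd5 values was not tested.

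The other receptors differed in whether they followed replicate 3. In log2 units, replicate 3 against the mean of replicates 1 and 2 gave 0.41 with 4OHT and 0.77 with DMSO for Fzd5, and 0.08 and 0.24 for Lrp6. Fzd6 went the other way, at -0.34 with 4OHT and -0.37 with DMSO. Lrp5 (-0.12 and -0.09), Fzd7 (-0.05 and -0.09) and Lgr4 (0.09 and 0.04) stayed close to 0. The summed Wnt/beta-catenin targets were lower in replicate 3, by -0.39 with 4OHT and -0.59 with DMSO. The summed enterocyte markers were higher, by 0.55 and 1.05, as were the goblet (0.57 and 0.90) and enteroendocrine (0.27 and 0.42) sums. Fzd4 and Fzd8 shifted in opposite directions in the groups, at low counts. The direction was the same in both groups for 7 of the 9 receptors. These include the genes close to 0 and Fzd1 (-1.49 and -0.57), which had 5 to 14 counts per library. The share of all tested genes that did so was not computed, so the count is not read as a trait of the receptors.

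**Figure D3:**
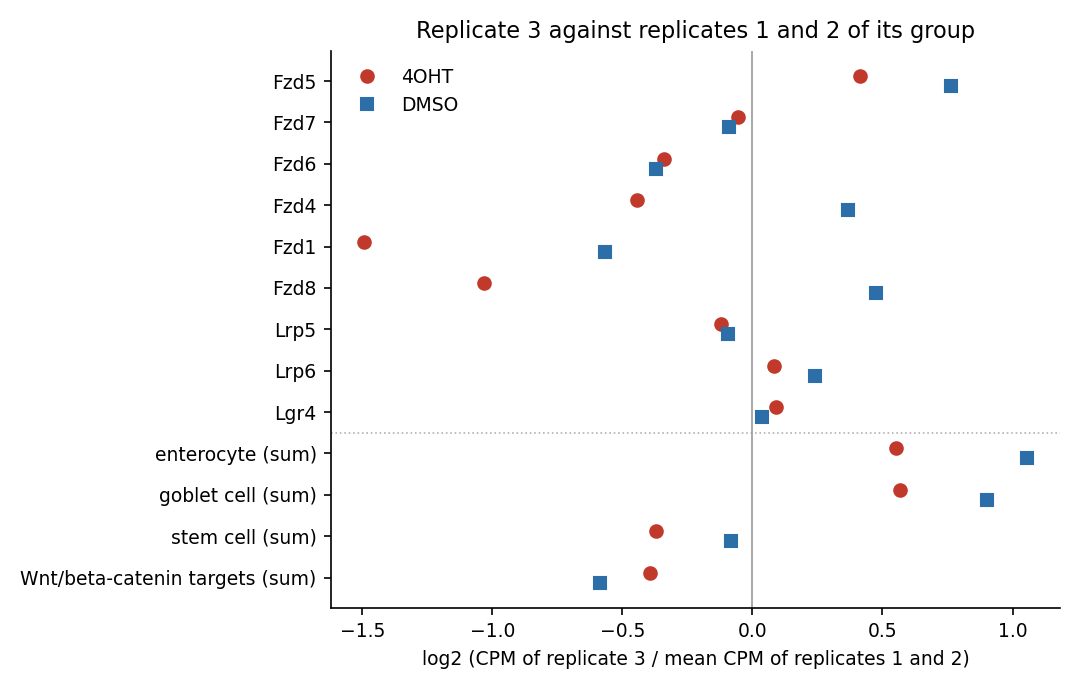
Replicate 3 of each group against the mean of replicates 1 and 2 of that group, as a log2 ratio of CPM, for the 9 receptors (above the dotted line) and for summed marker lists (below it); circles are 4OHT and squares DMSO. Fzd5 lies on the side of the enterocyte and goblet markers and Fzd6 on the side of the Wnt targets.

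Among the rare Frizzled genes the limits were wide for Fzd1 and Fzd8. Without the block the Fzd4 interval was narrower than that of the abundant Fzd5. With the block it was the wider (-0.61 to 0.42, against -0.41 to 0.01 for Fzd5). Fzd4 measured 3.01, 2.95 and 2.19 CPM with 4OHT and 2.78, 2.50 and 3.41 CPM with DMSO, a log2 fold change of -0.09 (95% interval -0.55 to 0.37, edgeR adjusted p = 0.870). Its groups overlapped, and its sign turned without replicate 3 of both groups (0.17, adjusted p = 0.692). Fzd1 measured 0.315, 0.393 and 0.126 CPM with 4OHT and 0.278, 0.299 and 0.195 CPM with DMSO (0.08, interval -0.99 to 1.14, adjusted p = 0.955). Fzd8 measured 0.487, 0.337 and 0.201 CPM with 4OHT and 0.250, 0.218 and 0.325 CPM with DMSO (0.36, interval -0.57 to 1.30, adjusted p = 0.721). For both genes the highest and the lowest library belonged to the 4OHT group. At this depth a change of 2-fold in either direction lies inside or at the edge of the Fzd1 interval, whose bounds correspond to 0.503-fold and 2.21-fold.

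Lrp5 was the sole receptor whose groups did not overlap. It measured 359.7, 337.3 and 320.8 CPM with 4OHT and 316.8, 313.2 and 294.9 CPM with DMSO, so the lowest 4OHT library lay just above the highest DMSO library. Such separation was seen in 22.6% of all tested genes. The log2 fold change was 0.14 (95% interval -0.02 to 0.29, edgeR adjusted p = 0.390), and 0.14 with the block (0.03 to 0.25, adjusted p = 0.132). With the block and without replicate 3 of both groups it was called (0.14, adjusted p = 0.0389), where 18.3% of all tested genes were called. Its paralogue Lrp6, the co-receptor most often tied to beta-catenin signalling, measured 97.8, 95.1 and 102.1 CPM with 4OHT and 95.9, 97.4 and 114.2 CPM with DMSO. The Lrp6 groups overlapped (log2 fold change -0.06, interval -0.25 to 0.13, edgeR adjusted p = 0.775), and the sign turned to 0.02 without DMSO replicate 3 (adjusted p = 0.904). Lrp5 exceeded Lrp6 per length 5.16-fold, 4.98-fold and 4.41-fold in 4OHT replicates 1 to 3, and 4.64-fold, 4.52-fold and 3.63-fold in DMSO replicates 1 to 3. These ratios overlapped between groups and depend on the length used: with the longest transcript as length the means were 3.64 with 4OHT and 3.20 with DMSO.

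Lgr4 measured 250.8, 233.9 and 257.9 CPM with 4OHT and 229.4, 226.4 and 234.0 CPM with DMSO. Only 4OHT replicate 2 fell within reach of the DMSO libraries, and the 4OHT library was the higher in all 3 pairs. The log2 fold change was 0.11 (95% interval -0.03 to 0.24, edgeR adjusted p = 0.452), and with the block 0.11 (-0.01 to 0.22, adjusted p = 0.217). Lgr5, the stem cell R-spondin receptor, measured 60.0, 80.2 and 33.7 CPM with 4OHT and 55.4, 77.3 and 48.2 CPM with DMSO (-0.06, edgeR adjusted p = 0.952). Lgr5 was lowest in replicate 3 of both groups, whereas Lgr4 was highest there. Per length, Lgr4 exceeded Lgr5 by 7.29-fold, 5.09-fold and 13.3-fold in the 4OHT libraries and by 7.22-fold, 5.11-fold and 8.46-fold in the DMSO libraries. With the longest transcript as length the mean ratio was 4.65 with 4OHT, against 8.57 with merged exons, and 3.76 with DMSO, against 6.93.

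**Figure D4:**
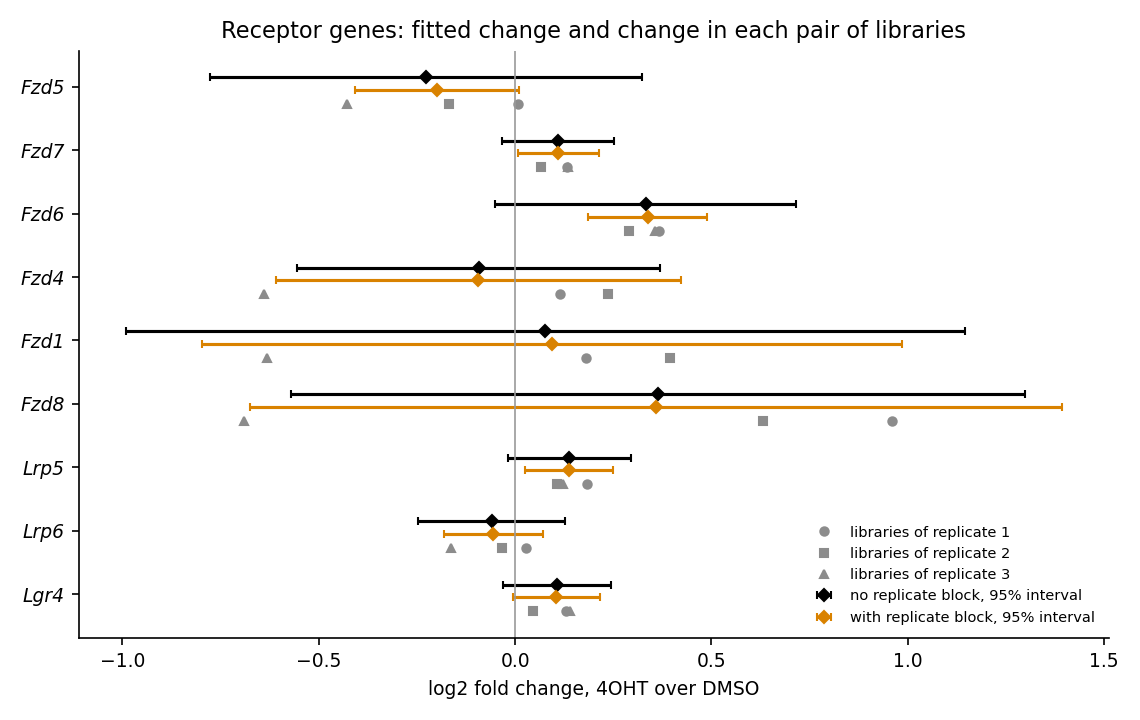
Log2 fold change of each receptor gene, 4OHT over DMSO, with its 95% interval without (black) and with (orange) the replicate block; grey symbols are the log2 ratios of CPM within each pair of same-numbered libraries. The Fzd6 interval with the block runs from 0.19 to 0.49, and the intervals of Fzd1 and Fzd8 are the widest.

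Among the ligands, Wnt4 and Wnt7b were called higher. Of 8 tested ligand genes edgeR called 2 higher and 0 lower, where it called 0.701% of all tested genes higher and 0.206% lower. With the block it called 2 higher and 2 lower (3.99% and 3% of all). DESeq2 called 3 higher and 2 lower (3.41% and 1.83% of all), the third being Wnt7a (adjusted p = 0.0474), named after its value was seen. The ligand list had a median log2 fold change of 0.78 beside -0.004 over all genes, with 5 positive and 3 negative values from -1.18 to 3.00. That median lies between Wnt6 (0.44, edgeR adjusted p = 0.438) and Wnt9a (1.13, edgeR adjusted p = 0.417). Neither was called, and each averaged 0.989 CPM or less in both groups, so the median is not read as a general rise of the ligands. Wnt4 rose to 7.44, 5.98 and 7.43 CPM with 4OHT, against 0.750, 1.03 and 0.812 CPM with DMSO (3.00, SE 0.185, edgeR adjusted p = 0.00291), and Wnt7b rose to 8.49 ± 0.990 CPM, against 2.21 ± 0.927 (SD, n = 3 each; 1.93, SE 0.301, edgeR adjusted p = 0.0448). The Wnt7b call was lost without any single library other than DMSO replicate 3 (edgeR adjusted p 0.107 to 0.191) and with a filter at 5 CPM (0.0559). Wnt3, the ligand of the series title, had a log2 fold change of -0.69 and was not called by edgeR without the block (adjusted p = 0.145). It was called lower with the block (edgeR adjusted p = 0.0168), by DESeq2 (0.0145), without DMSO replicate 3 (edgeR, 0.0419) and without replicate 3 of both groups (edgeR, 0.0168). The fits without these libraries called 340 of 14833 and 601 of 14654 tested genes. Wnt9b had a log2 fold change of -1.18 (edgeR adjusted p = 0.154) and was called lower with the block (0.0379) and by DESeq2 (0.0298). Both blocked calls were lost without replicate 2 of both groups (edgeR adjusted p = 0.117 for Wnt3 and 0.181 for Wnt9b).

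Of 6 tested alternative receptors and co-receptors edgeR called 0, where it called 0.908% of all tested genes, and with the block 1 fell, where 3% of all were called lower. DESeq2 also called 1 of the 6 (5.24% of all). That was Lrp4, a relative of Lrp5 and Lrp6 that serves as the agrin receptor at the neuromuscular synapse. Lrp4 measured 71.7, 63.4 and 58.9 CPM with 4OHT and 86.9, 82.8 and 87.0 CPM with DMSO, and every 4OHT library was below every DMSO library. Its log2 fold change was -0.40 (SE 0.079, edgeR adjusted p = 0.0731), and it was called with the block (-0.41, adjusted p = 0.0251) and by DESeq2 (adjusted p = 0.00268). Of the list of extracellular antagonists 3 genes were tested, namely Kremen1, Kremen2 and Apcdd1. The secreted antagonists Dkk2, Sfrp5 and Notum had a row but too few counts to be tested, and Dkk2 did not exceed 0.43 CPM in any library. Of the 3 tested genes edgeR called 0, with the block 1 rose (3.99% of all tested genes did), and DESeq2 called the same 1 higher. Kremen1, a Dickkopf receptor that helps to clear LRP6 from the cell surface, measured 40.4, 37.8 and 37.2 CPM with 4OHT and 30.6, 29.1 and 29.4 CPM with DMSO (0.37, SE 0.062, edgeR adjusted p = 0.0529, 0.0197 with the block, and 0.000997 by DESeq2). Without the block it was also called without DMSO replicate 3 (edgeR adjusted p = 0.0475) and without replicate 3 of both groups (0.0346). These fits called 340 of 14833 and 601 of 14654 tested genes. The blocked Lrp4 and Kremen1 calls were both lost without replicate 2 of both groups, and that of Kremen1 also without replicate 1 of both.

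With all libraries, genes that act on or just below the receptors were not called by edgeR without the block or by DESeq2. These called 0.908% and 5.24% of all tested genes, and edgeR with the block called 6.99%. In the R-spondin axis 3 genes were tested and 0 called: beside Lgr5, the ligase genes Rnf43 (119 ± 29.0 CPM with 4OHT, 118 ± 37.6 with DMSO, edgeR adjusted p = 0.988) and Znrf3 (26.3 ± 3.96 and 29.0 ± 2.66 CPM, edgeR adjusted p = 0.652). Of 4 tested genes for receptor folding and delivery 0 were called, also with the block. Shisa2, of a family that holds Frizzled back in the endoplasmic reticulum in Xenopus, had a log2 fold change of 0.34 (edgeR adjusted p = 0.264). It was called higher without DMSO replicate 3 (0.48, edgeR adjusted p = 0.0353), where 340 of 14833 tested genes were called. The same held without replicate 3 of both groups (0.45, edgeR adjusted p = 0.0340), where 601 of 14654 were called. It also held there with the block added (0.45, edgeR adjusted p = 9.56e-05), where 18.3% of all tested genes were called. In that last fit Shisa5 was called too (0.24, edgeR adjusted p = 0.00289). With all libraries Shisa5 had 0.30 (edgeR adjusted p = 0.125) and Atp6ap2, a proton pump subunit that binds LRP6, -0.23 (0.348). All 16 signalosome genes, from Dishevelled to beta-catenin and the TCF factors, were tested, 0 were called with or without the block, and their fold changes ran from -0.10 to 0.19 with a median of 0.01. The lowest adjusted p among them was 0.457 (Apc), followed by Tcf7l2 (0.628) and Ctnnb1 (0.642). The lists overlap: Lgr5, Rnf43 and Znrf3 are counted again among the Wnt/beta-catenin targets, and Lgr5 and Ascl2 are also stem cell markers. Of 15 tested Wnt/beta-catenin targets 0 were called, with a median of -0.06. With the block 1 fell, where 3% of all tested genes were called lower. That was the feedback inhibitor Axin2 (-0.36, edgeR adjusted p = 0.0265 with the block and 0.586 without it). Its edgeR adjusted p was 0.140 with the block but without replicate 2 of both groups, and 0.0340 without the block and without replicate 3 of both groups. Fzd2, Fzd3 and Fzd9, the further Frizzled genes, had adjusted p of 0.789, 0.665 and 0.921.

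**Figure D5:**
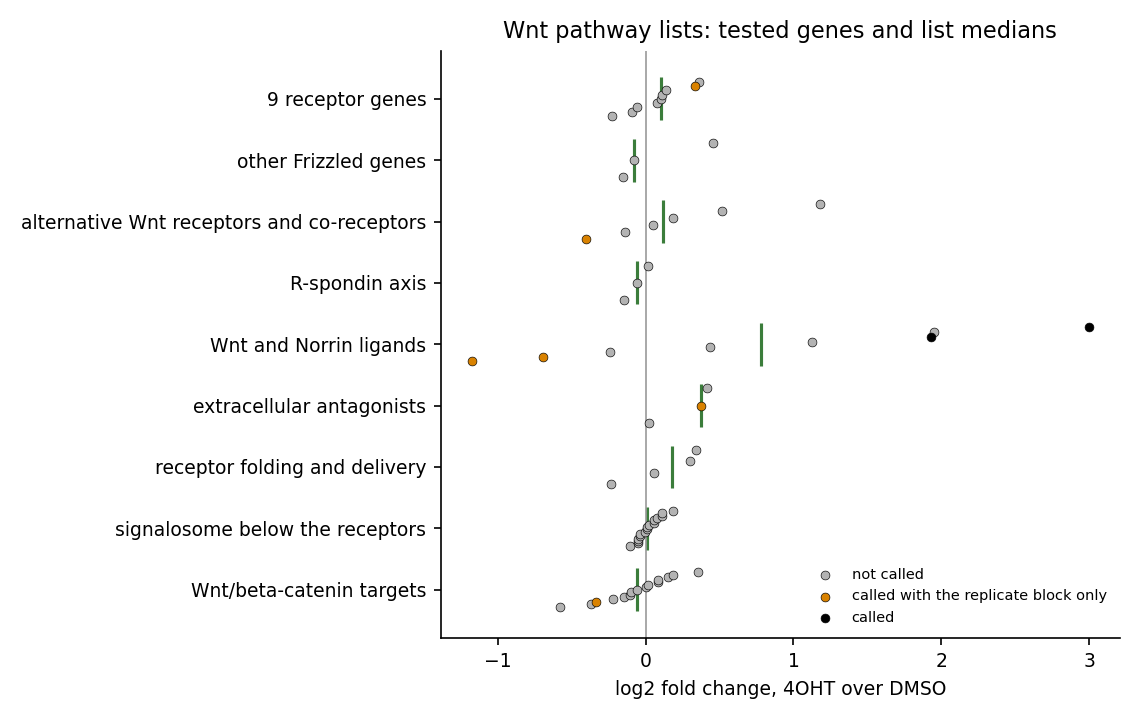
Log2 fold changes, 4OHT over DMSO, of all tested genes in the Wnt pathway lists; each point is a gene (black where called, orange where called with the block alone) and each green line a list median. The ligand list spreads from -1.18 to 3.00, whereas the 9 receptors lie between -0.23 and 0.36 and the signalosome genes between -0.10 and 0.19.

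For each receptor the most similar profiles over the 6 libraries were sought among genes whose mean reached 10 CPM, by Pearson's r of log2 CPM. The search covered 9087 genes for the receptors that reach that level themselves and 9088 for Fzd1, Fzd4 and Fzd8. Among so many candidates over 6 libraries high values are easily found, and the libraries share the 2 groups and the replicate 3 shift, so the values only rank the candidates. The profile of Fzd5 was most like those of Gbf1 (r = 0.999) and Bche (0.997). Fzd6 was closest to Tcf20 (0.993) and Dis3l2 (0.986), and Fzd7 to Pla2g4a (0.992) and Nedd4 (0.985). The co-receptor gene Lrp5 ran with Fpgs (0.995) and Cep170b (0.992). Lrp6 ran with Dnmbp (0.997) and Arfgap3 (0.996), and Lgr4 with Dnajc14 (0.994) and Spty2d1 (0.993). The rare genes had Zmat5 (0.973) and Sh3bp1 (0.954) for Fzd4, Cep128 (0.978) and Sipa1l1 (0.977) for Fzd1, and Sox13 (0.966) for Fzd8.

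In GRCm38 the genes lie on chromosome 5 from 4753839 to 4758035 (Fzd1), 7 from 89404355 to 89413134 (Fzd4), 1 from 64730558 to 64737751 (Fzd5), 15 from 39006034 to 39038188 (Fzd6) and 1 from 59482424 to 59486955 (Fzd7). Lrp5 lies on chromosome 19 from 3584828 to 3686564, Lrp6 on 6 from 134446476 to 134566965, and Lgr4 on 2 from 109917647 to 110014257. Exons of Fzd5 overlap those of the antisense gene Gm38058 over 1233 bases, and exons of Fzd6 overlap those of Gm26704 over 152 bases. These partners had 6 to 15 and 2 to 8 counts per library, against 4726 to 7880 for Fzd5 and 471 to 953 for Fzd6. RefSeq promoters (GRCm38.p6, 250 bases before to 50 after the start) were matched for 5 of the receptors, namely Fzd1, Fzd4, Fzd5, Fzd7 and Lgr4. On either strand, 0 of these 5 windows held the HNF4-type motif CAAAGTCCA, found in 0.475% of 32851 promoters, and 0 held the TCF-type motif ATCAAAG, found in 3.73%. At such shares 0 is the usual count for any 5 promoters, so nothing is read from it. Fzd6, Fzd8, Lrp5 and Lrp6 had no window.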

How the data were processed

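Poly(A) RNA of 6 organoid libraries, 3 per group, was made into strand-marked libraries, per the labels' protocols. STAR 2.4.0f1, bcl2fastq 1.8.4 and GRCm38 are named in the submitters' processing notes, and the counting program and strand setting were not given in the sources used here. The authors deposited raw counts per gene, used for every test here, in a table whose genes all had at least 10 counts in total. They also deposited a normalised score (rounded to whole numbers, not used here), log2 fold changes and p-values from DESeq and edgeR, per the file headers.

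Genes passing filterByExpr (14544 of 18448) were tested in edgeR 4.0.16 (R 4.3.3) with TMM scaling and the quasi-likelihood F test of 4OHT against DMSO. Tests were two-sided, Benjamini-Hochberg adjusted over all of these genes, and called under 0.05. Intervals (95%) use the standard error and degrees of freedom of that fit. The test was checked on simulated counts. Alternatives were DESeq2 1.42.0, limma-voom 3.58.1, other scalings and filters, the replicate block, and leaving out libraries. Same-numbered libraries deviated together from their group means (r = 0.303, 0.332 and 0.427 across genes), and libraries of different number had r from -0.372 to 0.0747. These values are not independent, since each mean is over the same 3 libraries. Equal numbers were treated as pairs in the block. This pairing comes from the same counts that the block tests, since the labels do not state one. Lengths and coordinates are from GENCODE M21. The receptors and gene lists were chosen with earlier results of these data known. Beside the 9 receptors, Hnf4a and Wnt3, the text names list members called with or without the block, or else the 3 with the smallest p, and the 2 genes most like each receptor, of which 1 is not reported here. Listed genes without a row in the table were not analysed here.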

Additional observations from a re-analysis of the deposited data

How the results depend on the processing

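Counting error limits Fzd1 and Fzd8, with 5 to 14 and 8 to 17 raw counts per library. Both genes and Fzd4 fell below a filter at 5 CPM, which gave them no value. The number of genes called over the whole table was 132. It was 762 with DESeq2, 78 with the filter at 5 CPM and 1017 with the replicate block, and it ran from 4 to 340 when single libraries were left out. Leaving out replicate 3 of both groups gave 601. With the block in the model, leaving out both libraries of replicate 3, 1 or 2 gave 2678, 638 or 44. The receptor count of 0 became 1 with the block (Fzd6) and 2 with the block and without replicate 3 of both groups (Fzd6 and Lrp5), and it was 0 in all other fits. Of 149 refitted fold changes of the 9 receptors, 135 kept their sign and their side of the threshold, 3 passed it and 11 turned sign. The block changed no other receptor call. Without single libraries the fold changes that turned sign ran from -0.261 to 0.442 for Fzd1, -0.19 to 0.0416 for Fzd4, -0.38 to 0.0681 for Fzd5, -0.106 to 0.0186 for Lrp6, -0.353 to 0.0547 for Fzd2, -0.0159 to 0.661 for Fzd3, -0.26 to 0.124 for Fzd9, -0.367 to 0.215 for Lgr5 and -0.236 to 0.204 for Rnf43. Fzd1 was -0.0476 with limma-voom. Without replicate 3 of both groups Fzd4 was 0.167, Lgr5 0.0709 and Rnf43 -0.045, and with the block added they were 0.167, 0.0748 and -0.0449. With the block, Fzd8 was -0.012 without replicate 1 of both groups, and without replicate 2 of both Fzd3 was -0.203 and Fzd9 0.021. The causes were not tested. With the longest transcript as length Lrp6 averaged 10.5 CPM per kb with 4OHT and 10.9 with DMSO, Lgr4 48.9 and 45.4, and the Lgr4 to Lgr5 ratio 4.65 and 3.76. The fits with the block and without replicate 1 or 2 of both groups, and the alternatives to the similarity ranking, were chosen after seeing the data. Leaving out single libraries, or scaling by library totals, moved 2 of 126 similarity values by more than 0.1.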
